A study of Bos indicus and Bos indicus x Bos taurus and Bos taurus with 6 samples.

Results

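The DNAJ genes encode J proteins, also called HSP40 cochaperones. They were taken as every row of the deposited count table whose symbol starts with DNAJ, followed by A, B or C and a number, which gave 45 of 21698 genes. Of these, 4 were class A, 13 class B and 28 class C. Their RNA was measured by sequencing of whole blood drawn from the jugular vein of cows of 3 breeds, with 2 libraries per breed (n = 2 throughout). Kedah-Kelantan is a Bos indicus breed native to Malaysia labelled as tolerant of heat, Brangus a composite labelled intermediate, and Holstein Friesian is a temperate dairy breed labelled heat-vulnerable. All cows were healthy adult females that were neither pregnant nor lactating, aged 4.5 ± 1.2 years and weighing 450 ± 15 kg, kept on 1 university farm. All were sampled during peak heat load at the same temperature-humidity index of 44.68, with no sample at a lower heat load, so the comparisons are between breeds under heat and not between heat and no heat. Each breed had 4 animals by the design text, and their relation to the 2 libraries is not given in the sources used here.

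A J protein carries a J domain, a short helical segment that makes an HSP70 chaperone hydrolyse ATP and grip an unfolded protein. Class A members also have a glycine- and phenylalanine-rich stretch and a zinc finger-like region, class B members lack that zinc finger-like region, and class C members share the J domain but otherwise little. The class letter therefore describes domain layout, and members of 1 class work in the cytosol, the nucleus, the endoplasmic reticulum (ER), mitochondria or on vesicles. Some, such as DNAJB1 and DNAJA1, are known heat shock genes, while DNAJB9, DNAJB11 and DNAJC3 are known targets of the unfolded protein response of the ER.

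Total counts ranged from 25275377 to 28668857 per library. The Holstein Friesian libraries stood apart from each other. Summed levels of B and plasma cell markers (15 of 15 with counts) were 4032 CPM (counts scaled to a fixed library size) in Holstein Friesian replicate 1 and 330.9 in replicate 2, while monocyte markers (12 of 12) were 1010 and 8639 and neutrophil markers (15 of 15) 1037 and 8410. Over the other 4 libraries these sums were 2554 to 4015, 1625 to 2119 and 2677 to 4647 CPM. T cell markers (14 of 14) were present in every library, at 3196 to 3999 CPM. Haemoglobin genes, which define red cells, made up only 0.0102% to 0.0588% of counts, and HBA1 and CA1 were at 0 in every library. Values without 1 of these libraries are given beside the main results below. In a comparison with Holstein Friesian, that breed is then a single library assumed to vary like the other breeds, and the adjusted p rests on the spread of those breeds alone. In whole blood, fewer cells of a type and less RNA per cell cannot be told apart.

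Most of the family was detected. Of the 45 rows, 39 had at least 1 count and 38 had enough to be tested, made up of 4 of class A, 9 of class B and 25 of class C. DNAJB3, DNAJB7, DNAJB8, DNAJC5B, DNAJC5G and DNAJC22 had 0 counts in all 6 libraries. Taking 3 counts as the most that an observed 0 could hide, these genes could lie at up to 0.0965 to 0.129 CPM, depending on the library. DNAJB13, known from sperm flagella, was counted 7 and 8 times in Kedah-Kelantan, 0 and 0 times in Brangus, then 0 and 6 times in Holstein Friesian, and was too low to test.

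**Figure D1:**
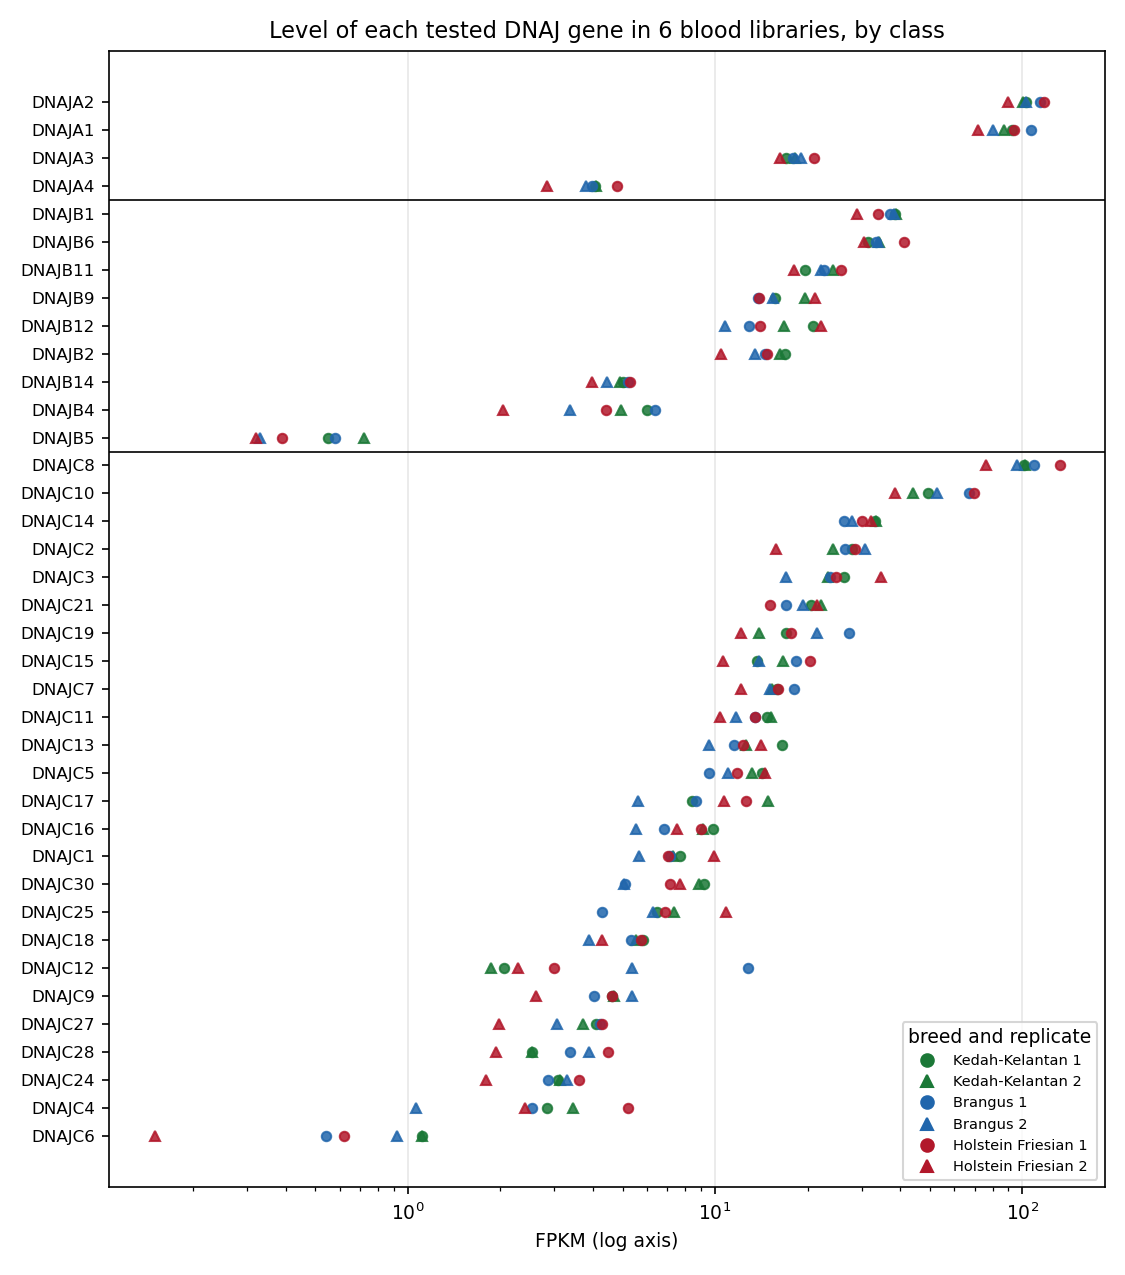
FPKM of the 38 tested DNAJ genes (rows, grouped by class A, B and C from top to bottom and sorted by mean level) on a log axis, with 1 point per library, coloured by breed and shaped by replicate. DNAJA2, DNAJC8 and DNAJA1 have the highest means at 104.7, 102.8 and 88.9 FPKM, and DNAJB5 the lowest at 0.482.

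A few members supplied most of the family's RNA. Levels between genes are compared in FPKM, the authors' measure that divides reads by gene length and library size. DNAJA2, a cytosolic class A member, had the highest mean at 104.7 FPKM, followed by DNAJC8, a spliceosome protein, at 102.8 and DNAJA1, the main cytosolic class A partner of HSP70, at 88.9. These 3 made up 38.2% of the family's mean FPKM, and with DNAJC10 (53.65), DNAJB1 (35.9) and DNAJB6 (34.2) they made up 54.1%. Within a class the range was wide. Class A ran from 3.93 FPKM for DNAJA4 to 104.7, class B from 0.482 for DNAJB5, a relative of DNAJB1, to 35.9, and class C from 0.742 for DNAJC6, the clathrin-uncoating protein auxilin, to 102.8. The median tested member was at 53.6 FPKM in class A, 16.2 in class B and 10.2 in class C, against 6.8 over all 13455 genes tested.

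The share of the 3 classes was nearly the same in every library. Class A made up 26.7% to 29.5% of the family's summed FPKM, class B 17.7% to 20.6% and class C 52.2% to 54.3%. The summed FPKM of the family was 789.2 and 780.8 in Kedah-Kelantan, 825.6 and 729.9 for Brangus, then 858.5 and 674.8 for Holstein Friesian, replicate 1 first. In these unscaled values the lowest and the highest sums were both Holstein Friesian libraries. In TMM-scaled CPM the order differed, with Brangus replicate 1 highest at 2070 and Kedah-Kelantan replicate 2 lowest at 1713, and Holstein Friesian at 1942 and 1738.

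**Figure D2:**
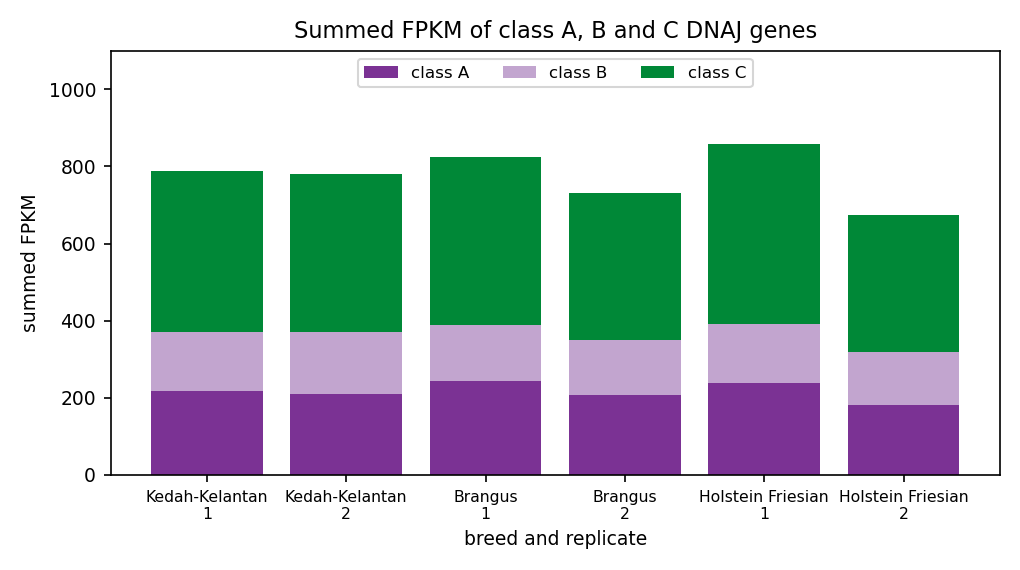
Summed FPKM (vertical axis, from 0) of class A, B and C DNAJ genes in each of the 6 libraries, stacked. Class C makes up 52.2% to 54.3% of each bar, and the highest (858.5) and lowest (674.8) bars are both Holstein Friesian in these unscaled values, while in TMM-scaled CPM the highest sum is Brangus replicate 1 (2070) and the lowest Kedah-Kelantan replicate 2 (1713).

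The median member varied less between libraries than the median gene. The median ratio of the highest to the lowest library was 1.63-fold over the 38 tested members, against 2.09-fold over all genes tested, with 1.44-fold in class A, 1.41-fold in class B and 1.79-fold in class C. This is a description, since the members are also expressed at a higher level than the median gene. DNAJC14, which helps export of membrane receptors from the ER, was the flattest member, at 94.1 to 113.5 CPM (1.21-fold). DNAJC12, a cochaperone of aromatic amino acid hydroxylases, spanned 2.01 to 16.3 CPM (8.07-fold), DNAJC6 spanned 6.14-fold, DNAJC4 spanned 4.32-fold and DNAJB4 spanned 3.17-fold.

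No DNAJ gene passed edgeR's test for any difference among the breeds (adjusted p under 0.05 over 13455 genes), and 0% of all genes passed. The smallest p in the family was 0.00712 for DNAJC12 (adjusted p = 0.56), then 0.0431 for DNAJC19 (adjusted p = 0.596) and 0.0801 for DNAJC30 (adjusted p = 0.646). At an unadjusted p under 0.05 there were 1107 genes (8.23%), 2 of them members. Without Holstein Friesian replicate 1 the same test called 8 members, beside 35.6% of all genes, and without replicate 2 it called 3 members, beside 20.4%. The number of calls thus turned on whether both Holstein Friesian libraries were in the fit, and differed by which 1 was left out.

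The first comparison asked how blood of the heat-tolerant breed differed from that of the heat-vulnerable breed. In Kedah-Kelantan against Holstein Friesian, 0 of 38 members passed edgeR's test, against 0.00743% of all genes. At an unadjusted p under 0.05 there were 0 members, against 4.04% of all genes, and DESeq2 called 0, against 0.974%. By fitted value, 14 members were higher (46.5% of all genes were) and 24 lower, with a median log2 fold change of -0.06 beside -0.03 over all genes. The libraries of the breeds did not overlap for 6 members on the higher side (18.1% of all genes) and 5 on the lower side (12.6%), together 11 members beside 30.7%. The class medians were -0.11 for A, -0.05 for B and -0.07 for C. Without Holstein Friesian replicate 1 the family median was 0.093, with 23 members higher and 15 lower, and with all libraries kept but total counts alone as the scale it was 0.097, with 25 higher and 13 lower. The direction of the family thus turned with that library and with the scaling. Without replicate 2, DNAJC10 (-0.71, edgeR adjusted p = 0.0291), DNAJC28 (-0.96, adjusted p = 0.0443) and DNAJC8 (-0.51, adjusted p = 0.047) were called lower in Kedah-Kelantan than the 1 remaining Holstein Friesian library, beside 12.3% of all genes.

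DNAJC6 had the smallest p and the largest difference. It was at 6.21 and 6.30 CPM for Kedah-Kelantan, 3.64 and 6.27 for Brangus, then 3.72 and 1.03 for Holstein Friesian. Both Kedah-Kelantan libraries lay above both Holstein Friesian libraries, and Holstein Friesian replicate 2 was the lowest of all 6. The log2 fold change was 1.39 (SE 0.70, edgeR adjusted p = 0.995). It was 2.60 without Holstein Friesian replicate 1 (adjusted p = 0.0142, against the single library at 1.03 CPM) and 0.70 without replicate 2, so the size rested on replicate 2.

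DNAJB6, a class B protein that keeps proteins from aggregating, was at 94.4 and 105.0 CPM for Kedah-Kelantan, 121.2 and 124.2 for Brangus, then 133.1 and 109.5 for Holstein Friesian. Kedah-Kelantan lay below the other 4 libraries in this TMM-scaled CPM, by -0.28 on the log2 scale (SE 0.17, edgeR adjusted p = 0.995) against Holstein Friesian. DNAJA3, the mitochondrial class A member, was at 39.6 and 43.3 CPM for Kedah-Kelantan and 52.3 and 44.9 in Holstein Friesian, again without overlap (-0.23, SE 0.17, edgeR adjusted p = 0.995). In unscaled FPKM both members overlapped, with Holstein Friesian replicate 2 lowest. It was at 30.63 for DNAJB6 (Kedah-Kelantan 31.39 and 34.24) and 16.23 for DNAJA3 (17.04 and 18.25). DNAJC25, an ER membrane member, was at 8.46 and 9.81 CPM against 9.63 and 16.9, which overlapped (-0.54, SE 0.39, edgeR adjusted p = 0.995).

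The known stress-responsive members did not pass either. DNAJB1, the main cytosolic class B heat shock gene, was at 83.3 and 86.0 CPM for Kedah-Kelantan, 96.9 and 101.3 for Brangus, then 79.0 and 74.7 for Holstein Friesian. In this TMM-scaled CPM the 3 breeds did not overlap, with Brangus highest and Holstein Friesian lowest, and the libraries of each breed were close. In unscaled FPKM Holstein Friesian was still lowest, but Kedah-Kelantan (38.39 and 38.83) lay above Brangus (37.04 and 38.31). DNAJB1 and DNAJB2, a class B member that sorts proteins to the proteasome, were the 2 of 38 members with both Holstein Friesian libraries below the other 4 in CPM, beside 5.22% of all genes. In FPKM, DNAJB2 did not keep that place, with Holstein Friesian replicate 1 at 14.81 and Brangus at 14.49 and 13.49. For DNAJB1 the difference of Kedah-Kelantan from Holstein Friesian was 0.14 (SE 0.15, edgeR adjusted p = 0.995). DNAJA1 was at 120.8 and 115.6 CPM for Kedah-Kelantan, 168.0 and 127.6 for Brangus, then 131.4 and 110.9 for Holstein Friesian (-0.04, SE 0.20), and this difference became 0.09 without Holstein Friesian replicate 1. DNAJA4, a further cytosolic class A member, was at 13.1 and 13.5 CPM, 15.4 and 14.9, and 16.6 and 10.9 in the same breed order (-0.04, SE 0.28), and the difference became 0.29 without Holstein Friesian replicate 1. DNAJB4, a close relative of DNAJB1, was at 12.6 and 10.5 CPM for Kedah-Kelantan against 9.90 and 5.05 in Holstein Friesian (0.62, SE 0.47, edgeR adjusted p = 0.995). Its Brangus libraries were at 16.01 and 8.55 CPM, so Brangus overlapped both other breeds.

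Among the members induced by ER stress, DNAJC3, a cochaperone of the ER chaperone BiP, was at 39.0 and 35.1 CPM for Kedah-Kelantan, 42.2 and 30.7 for Brangus, then 39.2 and 60.8 for Holstein Friesian. Only Holstein Friesian replicate 2 stood out, and the difference of Kedah-Kelantan from Holstein Friesian was -0.43 (SE 0.29, edgeR adjusted p = 0.995), or -0.12 without that library. DNAJB9, which acts on BiP and on the stress sensor IRE1, was at 29.6 and 37.8 CPM, 31.4 and 35.7, and 28.2 and 47.6 (-0.17, SE 0.30), and its difference became 0.22 without Holstein Friesian replicate 2. DNAJB11, an ER lumen cochaperone of BiP, was at 28.7 and 36.3 CPM, 40.1 and 39.4, and 40.4 and 31.4 (-0.14, SE 0.22), and its difference became 0.02 when Kedah-Kelantan replicate 1 was left out and 0.05 when Holstein Friesian replicate 1 was. Of the 10 tested ER members, 2 were higher and 8 lower in Kedah-Kelantan by fitted value (median -0.16), and none passed. In this comparison the lean was not particular to the ER. Of 7 mitochondrial members 2 were higher and 5 lower (median -0.17), and of 3 nuclear members 1 was higher and 2 lower (-0.15). The 8 cytosolic members of classes A and B were split 4 and 4 (0.05). With total counts alone as the scale, the differences of DNAJA1, DNAJA4, DNAJB9 and DNAJB11 from Holstein Friesian turned to 0.12, 0.10, 0.0079 and 0.0039.

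**Figure D3:**
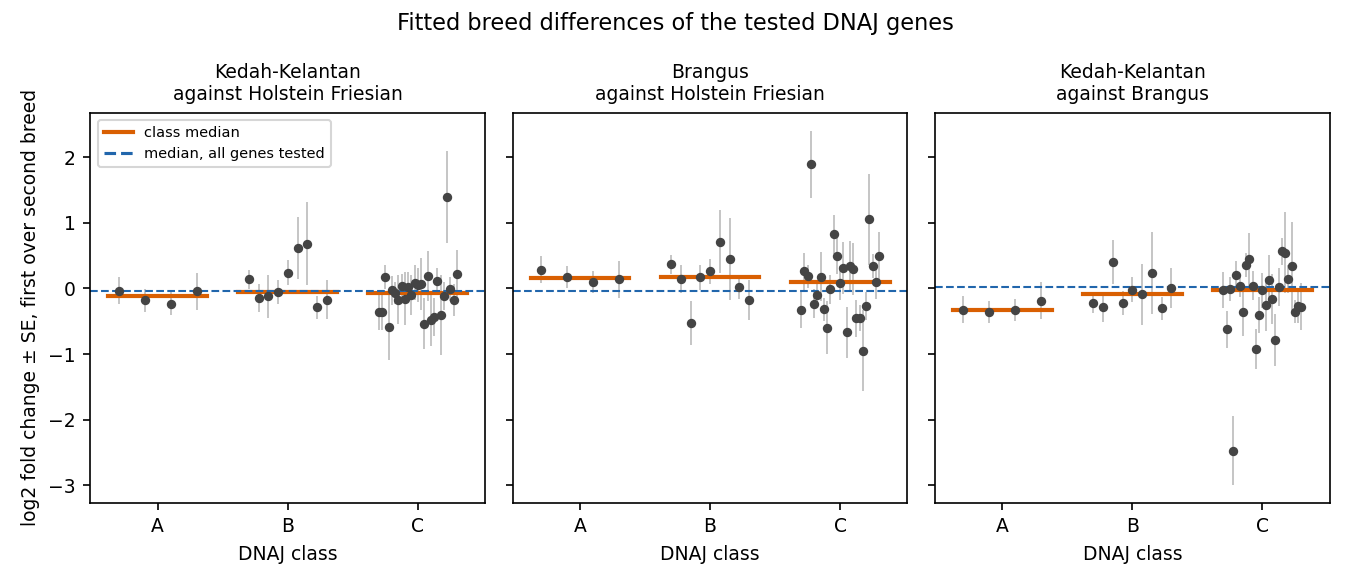
Log2 fold change (first breed over second; points, with bars of ± 1 SE) of the tested members of class A (4), B (9) and C (25) in the 3 comparisons, with the class median in orange and the median of all genes tested as a dashed line. Class A medians are -0.11, 0.16 and -0.33 from left to right (the first turns to 0.03 with total counts alone), and the lowest point at right is DNAJC12 at -2.47.

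The next comparison asked how the composite breed differed from the heat-vulnerable breed. In Brangus against Holstein Friesian, 0 of 38 members passed edgeR's test, against 0.00743% of all genes. At an unadjusted p under 0.05 there were 2 members, against 7.62% of all genes, and DESeq2 called 1, DNAJC12, among 2.33% of all genes. By fitted value 25 members were higher in Brangus, beside 47.3% of all genes, and 13 lower (median 0.16, beside -0.03 over all genes). Libraries did not overlap for 6 members on the higher side (18.4% of all genes) and 3 on the lower side (15.9%), together 9 members beside 34.3%. All 4 class A members were higher by fitted value (median 0.16), as were 7 of 9 in class B (0.17) and 14 of 25 in class C (0.09). By location, 3 ER members were higher and 7 lower (median -0.25), while all 8 cytosolic members of classes A and B were higher (0.27). Of 7 mitochondrial members 5 were higher and 2 lower (0.18), and of 3 nuclear members 2 were higher and 1 lower (0.09). Without Holstein Friesian replicate 2 the family median was -0.05, with 16 members higher and 22 lower, so the direction of the family rested on that library.

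DNAJC12 had the largest difference. Its count was 380 and 160 in Brangus, 67 and 62 in Kedah-Kelantan, and 101 and 75 in Holstein Friesian. The same libraries stood at 16.3 and 6.87, 2.16 and 2.01, and 3.39 and 2.85 CPM. Both Brangus libraries were above the other 4, but they differed from each other by more than 2-fold. Brangus was at 11.6 ± 6.64 CPM (SD, n = 2) and Holstein Friesian at 3.12 ± 0.38, a difference of 1.89 on the log2 scale (SE 0.51, edgeR adjusted p = 0.645). DESeq2 gave 1.86 (adjusted p = 0.044). The difference was 1.11 without Brangus replicate 1 and 2.34 without Brangus replicate 2. Against Holstein Friesian replicate 2 alone it was 2.02 (edgeR adjusted p = 0.031), and against replicate 1 alone 1.73 (adjusted p = 0.123). DNAJC12 lies on chromosome 28 from 24248418 to 24283669 on the minus strand in the deposited table, with no other listed gene overlapping it.

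DNAJC19, part of the motor that pulls proteins into mitochondria, was at 15.9 and 12.6 CPM in Brangus, 8.24 and 6.82 in Kedah-Kelantan, and 9.16 and 6.96 in Holstein Friesian. Brangus was again above the other 4 libraries, by 0.82 (SE 0.30, edgeR adjusted p = 0.647) against Holstein Friesian. Against Holstein Friesian replicate 2 alone the difference was 1.03 (edgeR adjusted p = 0.0398), and against replicate 1 alone 0.60 (adjusted p = 0.315). DNAJB1 was higher in Brangus than in Holstein Friesian by 0.37 (SE 0.15, edgeR adjusted p = 0.653).

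DNAJC7, which passes clients between HSP70 and HSP90, was at 132.0 and 110.9 CPM in Brangus, 96.1 and 94.2 in Kedah-Kelantan, and 103.9 and 87.6 in Holstein Friesian (0.34, SE 0.18, edgeR adjusted p = 0.665). DNAJC2, a ribosome-bound cochaperone of new proteins, was at 66.2 and 77.7 CPM in Brangus, 57.8 and 51.1 in Kedah-Kelantan, and 63.2 and 39.1 in Holstein Friesian (0.49, SE 0.27, edgeR adjusted p = 0.666). Its difference was 0.88 (adjusted p = 0.00791) against Holstein Friesian replicate 2 alone and 0.15 against replicate 1 alone. With DNAJB1, DNAJC12 and DNAJC19 these made 5 of 38 members whose Brangus libraries were both above the other 4 in TMM-scaled CPM, beside 14.0% of all genes. In unscaled FPKM, DNAJC12 and DNAJC19 kept that place, and DNAJB1, DNAJC7 and DNAJC2 did not. For DNAJC7, Brangus replicate 2 (15.07) lay below Kedah-Kelantan (15.91 and 15.28). For DNAJC2, Brangus replicate 1 (26.49) lay below Kedah-Kelantan replicate 1 (27.87).

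DNAJC30, a mitochondrial protein linked to repair of respiratory complex I, went the other way. It was at 15.4 and 15.5 CPM in Brangus, 23.0 and 22.7 in Kedah-Kelantan, and 19.2 and 22.9 in Holstein Friesian. The Brangus libraries were nearly equal and below the other 4, by -0.45 (SE 0.20, edgeR adjusted p = 0.659) against Holstein Friesian. DNAJC16, an ER membrane member, was the other gene of the family with both Brangus libraries below the other 4 (2 of 38, beside 12.1% of all genes). The remaining stress-responsive members gave 0.29 (SE 0.20) for DNAJA1, 0.14 (SE 0.28) for DNAJA4, 0.71 (SE 0.47) for DNAJB4, -0.17 (SE 0.30) for DNAJB9, 0.15 (SE 0.22) for DNAJB11 and -0.46 (SE 0.29) for DNAJC3. None of them passed. DNAJC3 was at -0.74 (edgeR adjusted p = 0.0315) against Holstein Friesian replicate 2 alone and -0.14 against replicate 1 alone. DNAJA4, DNAJB9 and DNAJB11 took the opposite sign without Holstein Friesian replicate 2, at -0.17, 0.22 and -0.06. Against Holstein Friesian replicate 2 alone, 12 members were called (8 higher and 4 lower in Brangus, beside 32.9% of all genes). Against replicate 1 alone 0 members were called, beside 6.05% of all genes. In both fits the spread was taken from the other breeds.

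The last comparison set the tolerant breed against the composite breed, which are the breeds whose libraries lay closest to each other within the breed. In Kedah-Kelantan against Brangus, 0 of 38 members passed edgeR's test and 0% of all genes did. At an unadjusted p under 0.05 there were 3 members, against 11.6% of all genes, and DESeq2 called 1, DNAJC12, among 4.99% of all genes. By fitted value 14 members were higher in Kedah-Kelantan, beside 51.9% of all genes, and 24 lower (median -0.13, beside 0.02 over all genes). Libraries did not overlap for 18 members on the lower side, against 30.7% of all genes, and for 4 on the higher side, against 33.5%, together 22 members beside 64.2%. In TMM-scaled CPM, all 4 class A members were without overlap on the lower side (median -0.33). So were 4 of 9 in class B (median -0.09) and 10 of 25 in class C (median -0.03). In unscaled FPKM only DNAJA2 of class A kept that place. There DNAJA1 (92.85 and 87.12 against 107.14 and 80.52) and DNAJA3 (17.04 and 18.25 against 17.91 and 19.08) overlapped. DNAJA4 was then higher in Kedah-Kelantan, at 4.07 and 4.11 against 3.97 and 3.79.

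These directions, and which members are without overlap, depend on how the libraries are scaled. With total counts alone in place of TMM scaling, which sets the bulk of genes equal between libraries, the median of all genes moved to 0.29 in Kedah-Kelantan against Brangus, to 0.12 in Kedah-Kelantan against Holstein Friesian and to -0.14 in Brangus against Holstein Friesian. The split of members in Kedah-Kelantan against Brangus then turned to 24 higher and 14 lower, and in Brangus against Holstein Friesian it was 21 higher and 17 lower. Relative to the median of all genes, the family median was -0.15 under both scalings. For Kedah-Kelantan against Holstein Friesian the relative value was -0.03 under both, and for Brangus against Holstein Friesian it was 0.19 and 0.18. A change of scale shifts all genes by nearly the same amount. These matches were thus built in and are not evidence of a stable offset. On log2(FPKM + 1), the relative value in Kedah-Kelantan against Brangus was -0.056. The comparisons with Holstein Friesian gave -0.026 (Kedah-Kelantan) and 0.12 (Brangus). In TMM-scaled counts, dropping Holstein Friesian replicate 1 took Brangus against Holstein Friesian to 0.31, and dropping replicate 2 took it to -0.048.

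DNAJC12 again differed most, at 2.09 ± 0.10 CPM (SD, n = 2) in Kedah-Kelantan against 11.6 ± 6.64 in Brangus, a difference of -2.47 on the log2 scale (SE 0.53, edgeR adjusted p = 0.353). DESeq2 gave -2.47 (adjusted p = 0.00114). The difference was -2.96 without Brangus replicate 2 and -1.73 without Brangus replicate 1. DNAJC19 followed at 7.53 ± 1.00 against 14.3 ± 2.30 CPM (-0.92, SE 0.30, edgeR adjusted p = 0.388). DNAJC30 was at 22.8 ± 0.21 against 15.4 ± 0.04 CPM (0.56, SE 0.20, edgeR adjusted p = 0.4).

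**Figure D4:**
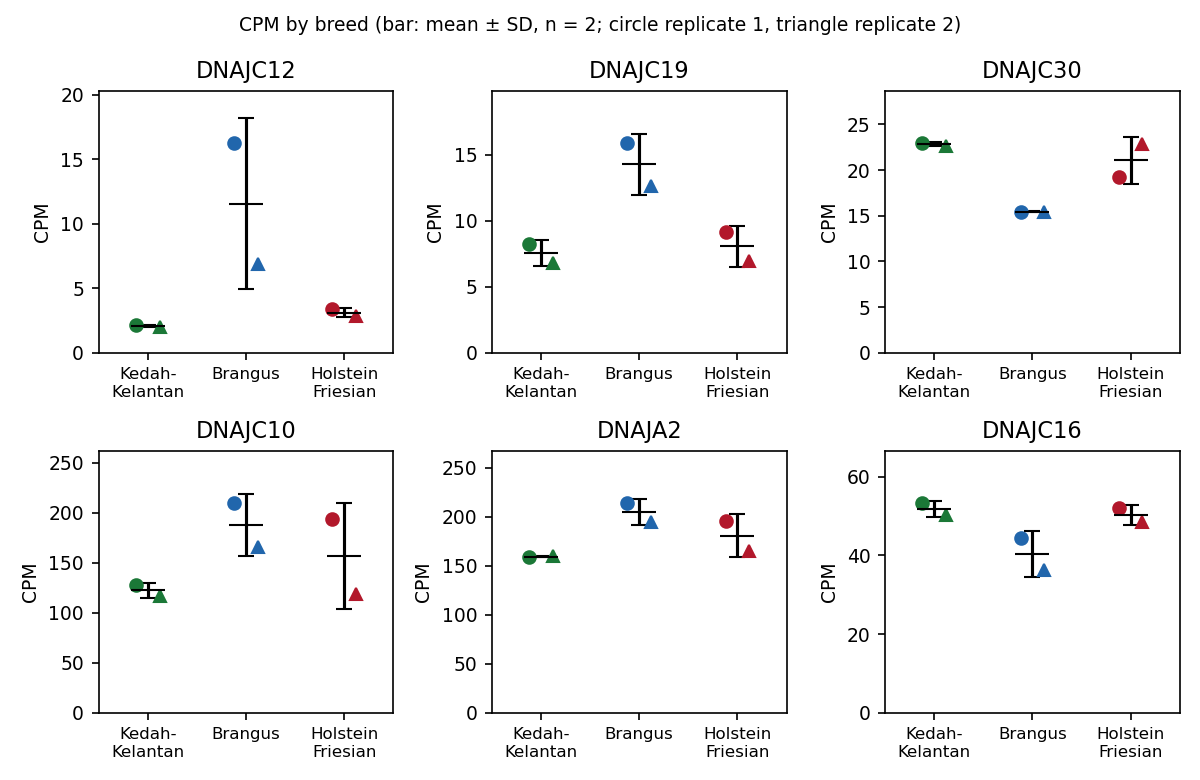
CPM (vertical axes, from 0) of the 6 members with the smallest p in Kedah-Kelantan against Brangus, by breed, with 1 symbol per library and the mean ± SD (n = 2) in black. DNAJC12 has 1 Brangus library at 16.3 and the other at 6.87, and the 4 remaining libraries lie between 2.01 and 3.39.

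DNAJC10, an ER disulfide reductase, was at 127.9 and 116.9 CPM for Kedah-Kelantan, 209.8 and 165.9 for Brangus, then 193.8 and 119.1 for Holstein Friesian. Kedah-Kelantan was below Brangus without overlap (-0.62, SE 0.28, edgeR adjusted p = 0.475), and the Holstein Friesian libraries spanned most of the range. DNAJA2 was at 159.0 and 159.6 CPM for Kedah-Kelantan, 214.0 and 195.0 for Brangus, then 196.1 and 165.3 for Holstein Friesian (-0.36, SE 0.17, edgeR adjusted p = 0.486). Its Kedah-Kelantan libraries, nearly equal, were below the other 4 in TMM-scaled CPM. DNAJA3, DNAJB6 and DNAJC12 shared that position, making 4 of 38 members beside 7.45% of all genes. In unscaled FPKM only DNAJC12 kept it. Holstein Friesian replicate 2 of DNAJA2 was then at 89.54, below Kedah-Kelantan at 102.47 and 100.85, and that library was below Kedah-Kelantan for DNAJA3 and DNAJB6 too. DNAJC16 was at 53.3 and 50.3 CPM for Kedah-Kelantan against 44.4 and 36.3 in Brangus (0.36, SE 0.18, edgeR adjusted p = 0.495). Against Brangus the stress-responsive members gave -0.32 (SE 0.20) for DNAJA1, -0.23 (SE 0.15) for DNAJB1, -0.18 (SE 0.28) for DNAJA4, -0.09 (SE 0.47) for DNAJB4, 0.01 (SE 0.30) for DNAJB9, -0.29 (SE 0.22) for DNAJB11 and 0.02 (SE 0.29) for DNAJC3. None passed, and with total counts alone DNAJB1, DNAJA4 and DNAJB4 turned to 0.04, 0.08 and 0.17.

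When only the 4 libraries of these breeds were fitted, so that the wide Holstein Friesian spread did not enter, edgeR called 4 members. All were lower in Kedah-Kelantan. They were DNAJC12 (-2.46, adjusted p = 0.00956), DNAJC10 (-0.61, adjusted p = 0.0214), DNAJC19 (-0.91, adjusted p = 0.0377) and DNAJC28, a mitochondrial member (-0.77, adjusted p = 0.0428). DNAJC28 was at 8.91 and 9.10 CPM for Kedah-Kelantan, 14.3 and 16.7 for Brangus, then 16.9 and 8.13 for Holstein Friesian. The 4 of 38 stand beside 18.7% of all genes called in that fit. With all 3 breeds in the fit, DNAJC12 was at -2.47 both without Holstein Friesian replicate 1 and without replicate 2. In the same order, DNAJC10 was at -0.62 and -0.62, DNAJC19 at -0.92 and -0.93, and DNAJC28 at -0.78 and -0.79. DNAJA2 was at -0.36 and -0.37. These fits used the same 4 libraries of the compared breeds, so they are not separate support.

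Summed blood cell markers also differed between the libraries of these breeds, described here without a test of the sums. No single tested marker of the lists below passed edgeR's test in this comparison. The smallest adjusted p was 0.337 among platelet markers and among NK and cytotoxic markers, and 0.775 among B and plasma cell markers. Summed platelet markers (11 of 12 listed, all with counts) were 300.4 and 347 CPM for Kedah-Kelantan and 1288 and 1417 in Brangus. Eosinophil, basophil and mast cell markers (8 of 13 listed) were 444.4 and 461.3 CPM against 46.9 and 42.4, and B and plasma cell markers were 2554 and 2708 against 4015 and 3377. NK and cytotoxic lymphocyte markers (15 of 15) were 1134 and 1258 against 667.8 and 726, and erythroid markers (12 of 14) 150.6 and 188.4 against 450.6 and 646.9. Their part in the differences of DNAJC12, DNAJC19, DNAJC10 and DNAJC28 was not tested.

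Replicates differed most often within Holstein Friesian. Of 37 members with a mean count of at least 50, 18 differed over 1.5-fold between Holstein Friesian replicates, against 46.9% of all such genes, with 6 higher and 12 lower in replicate 2. In Brangus 5 did, against 16.2% of genes, and in Kedah-Kelantan 1 did, against 3.23%. The 1 in Kedah-Kelantan was DNAJC17, at 7.56 and 13.6 CPM. Those in Brangus included DNAJC12 (16.3 and 6.87 CPM), whose replicate difference was exceeded only by that of DNAJC6 in Holstein Friesian. The median absolute log2 difference of members was 0.45, 0.25 and 0.08 in Holstein Friesian, Brangus and Kedah-Kelantan.

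The 6 members higher in Holstein Friesian replicate 2 included 5 of the ER. They were DNAJB12 (15.9 and 27.9 CPM), DNAJC25 (9.63 and 16.9), DNAJB9 (28.2 and 47.6), DNAJC1 (26.6 and 41.5) and DNAJC3 (39.2 and 60.8), together with DNAJC21, a factor in ribosome assembly, at 30.3 and 47.7. Other ER members were lower in replicate 2, as DNAJC10 was at 193.8 and 119.1 CPM, DNAJB11 at 40.4 and 31.4, DNAJC18 at 39.45 and 32.65, and DNAJB14 at 42.3 and 35.2.

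Lower in replicate 2 were DNAJC6 (3.72 and 1.03 CPM), DNAJC28 (16.9 and 8.13), DNAJB4 (9.90 and 5.05) and DNAJC27 (19.8 and 10.2), which carries a Rab-like GTPase domain. DNAJC4, a mitochondrial member, was at 6.68 and 3.42 CPM, and it also differed within Brangus, at 3.68 and 1.55. DNAJC8 was at 188.0 and 120.5 CPM, while it was at 134.5 and 138.5 in Kedah-Kelantan and 174.2 and 155.1 in Brangus, and did not pass the test for any breed difference (edgeR adjusted p = 0.86). DNAJC14 did not pass either (edgeR adjusted p = 0.941). The Holstein Friesian libraries carried 4032 and 330.9 CPM of B and plasma cell markers and 1010 and 8639 of monocyte markers, and the part of these cells in the differences was not tested.

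**Figure D5:**
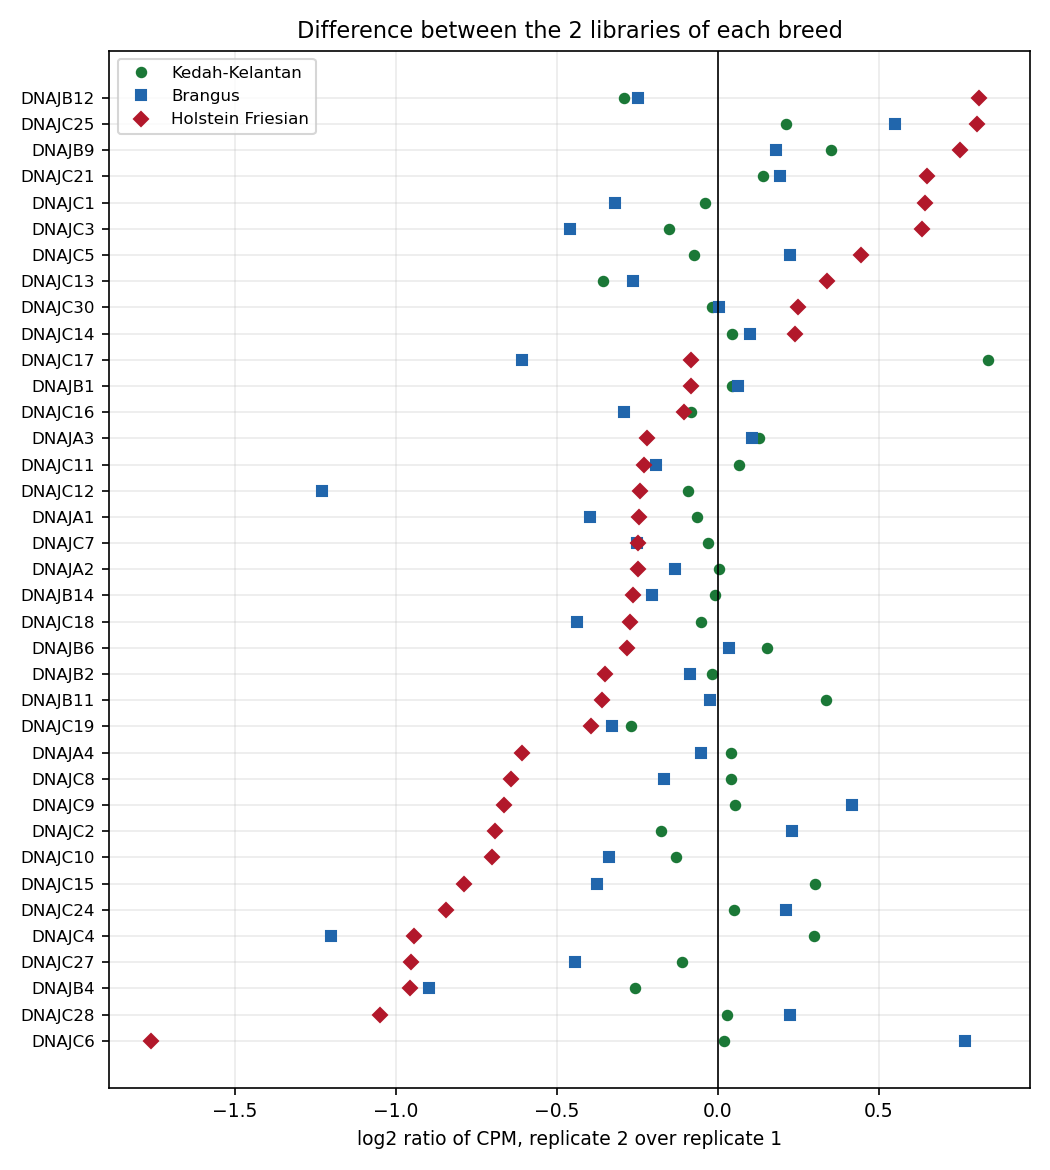
Log2 ratio of CPM in replicate 2 over replicate 1 within each breed (horizontal axis) for the 37 members with a mean count of at least 50 (rows), sorted by the Holstein Friesian value. Holstein Friesian runs from -1.76 for DNAJC6 to 0.81 for DNAJB12, and the Kedah-Kelantan point farthest from 0 is DNAJC17 at 0.84.

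The partners of the J proteins were taken from lists of known genes. None of the 14 tested HSP70 genes, HSPH1 included, passed edgeR's test in any comparison. Their medians were 0.05 in Kedah-Kelantan against Holstein Friesian, 0.22 in Brangus against Holstein Friesian and -0.19 in Kedah-Kelantan against Brangus. HSPA8, the constitutive HSP70, was at 1459 CPM on average in Holstein Friesian and 2139 in Brangus (0.55, SE 0.18, edgeR adjusted p = 0.645; DESeq2 0.52, adjusted p = 0.039). Against Holstein Friesian replicate 2 alone it was called by edgeR (0.64, adjusted p = 0.00749), and against replicate 1 alone it was not (0.43). HSPH1, a nucleotide exchange factor of the HSP110 type, was at 47.2 CPM for Kedah-Kelantan and 67 in Brangus (-0.50, SE 0.165, edgeR adjusted p = 0.388, or 0.0307 and 0.0286 without Holstein Friesian replicate 1 or 2), and at 54.7 in Holstein Friesian (-0.21, SE 0.16).

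In summed FPKM, the DNAJ family stood at 0.722 and 0.725 of the HSP70 genes in Kedah-Kelantan, 0.674 and 0.645 for Brangus, then 0.846 and 0.759 for Holstein Friesian. The ratio did not overlap between breeds. Without HSPA8 it was 2.25 and 2.26, 2.63 and 2.45, and 2.85 and 2.11, and the Holstein Friesian libraries then spanned both other breeds.

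Of 16 exchange factors and adaptors of HSP70, none passed edgeR's test, with medians of -0.08, 0.18 and -0.15 in the same order of comparisons. BAG2, which inhibits the ligase CHIP, was at 9.59 CPM for Kedah-Kelantan, 25.8 for Brangus, with Holstein Friesian at 14.0. The difference was -1.43 (SE 0.28, edgeR adjusted p = 0.353) in Kedah-Kelantan against Brangus and 0.89 (SE 0.28, edgeR adjusted p = 0.645) in Brangus against Holstein Friesian. DESeq2 called the first (adjusted p = 0.00115), as did edgeR without Holstein Friesian replicate 1 (0.00366) or 2 (0.00408). The second was called against Holstein Friesian replicate 1 alone (1.14, edgeR adjusted p = 0.041) and not against replicate 2 alone (0.64). BAG1, an exchange factor, had the smallest p of the list in Kedah-Kelantan against Holstein Friesian (-0.32, SE 0.15, edgeR adjusted p = 0.995).

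None of the tested J domain genes without the DNAJ symbol passed edgeR's test. HSCB, which serves iron-sulfur cluster assembly, was at 8.10 CPM for Kedah-Kelantan and 10.4 in Holstein Friesian (-0.36, SE 0.27). None of the 4 heat shock factor genes HSF1, HSF2, HSF4 and HSF5 passed edgeR's test, nor did HSBP1, which binds heat shock factor, and the smallest p in each comparison belonged to HSF2 (0.29, SE 0.25), HSF4 (-1.0, SE 0.78) and HSBP1 (-0.38, SE 0.16) in the same order.

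The members were scattered over 23 chromosomes in the deposited table, and the closest pair, DNAJB12 and DNAJC9 on chromosome 28, lay 901660 bases apart. The family is thus not a gene cluster here. Some members overlap another expressed gene on the opposite strand, and whether reads were counted by strand is not given in the sources used here, so their counts are uncertain. DNAJC17 (mean count 279.8) overlaps C10H15orf62 (323.5), DNAJC24 (176.3) overlaps IMMP1L (793.3), DNAJC9 (232.7) overlaps FAM149B1 (584.8) and DNAJC16 (1320) overlaps AGMAT (105.5). The table also lists 9 uncharacterised genes described as DNAJ-like copies. The highest were a DNAJC8-like gene on chromosome 19 with a mean count of 103.2 and a DNAJA2-like gene on chromosome 8 with 70.2, and how reads were divided between each copy and its named relative is uncertain.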

How the data were processed

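The authors deposited raw read counts per gene and FPKM values for the same 21698 genes in 6 libraries, per the file headers. Per the submitters' processing notes the build was ARS-UCD1.2 and the tools included DESeq2 1.38.0, HISAT2 2.2.1 and Trimmomatic 0.39. The same notes list featureCounts 2.0.1 and FastQC 0.11.9, with no role or setting. Per the labels' protocols, RNA needed an integrity number over 7.0. Positions are the deposited table's own, and chromosome names were assigned by the 16311 symbols shared with a RefSeq table of another assembly, a NIAB-ARS Bos indicus genome (99.8% the same).

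The test on counts was that of edgeR 4.0.16 (R 4.3.3), using TMM scaling, filterByExpr and a robust quasi-likelihood fit of breed over all 6 libraries (3 residual degrees of freedom). The Benjamini-Hochberg adjustment covered 13455 genes. Each SE was obtained from the fitted log2 fold change over √F. CPM uses the TMM-scaled library size, and FPKM is unscaled. Counts of members without overlap, or apart from the other 4 libraries, were made in CPM. DESeq2 1.42.0 and limma 3.58.1 served as alternatives, and the edgeR test was tried on simulated data. It recovered 41 of 100 genes changed 4-fold in Kedah-Kelantan against Holstein Friesian, 23 in Brangus against Holstein Friesian and 36 in Kedah-Kelantan against Brangus. Of 100 changed 16-fold it recovered 76, 76 and 84. A member that did not pass is thus not shown to be equal between breeds. The labels call the libraries biological replicates without linking them to animals, so p-values measure the spread between these libraries. Replicate counts differed beyond sampling noise in each breed, so no pair was 1 library sequenced again, which does not tell separate animals from separate preparations.

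The members and lists were chosen with earlier results of these data known. Members given with full statistics were the 6 with the smallest p in each comparison, 7 known stress or ER members, the 3 highest by FPKM per class and 4 with the largest difference between replicates; from each partner list the smallest p was named, except for 1 gene that is not reported here. Other members were chosen after their values were seen. Floors for a count of 0 cover counting error only. No sequence is shown, since none of a matching build was used here.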

Additional observations from a re-analysis of the deposited data

How the results depend on the processing

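With 2 libraries per breed, replicates differed beyond sampling noise, and depth limits only the lowest members, such as DNAJB13. edgeR called 1 gene in Kedah-Kelantan against Holstein Friesian, 1 in Brangus against Holstein Friesian and 0 in Kedah-Kelantan against Brangus and for any breed difference. In that order of comparisons DESeq2 called 131, 313 and 672 genes, with 0, 1 and 1 members. Fitting only the breeds compared gave 0, 0 and 2515 genes, with 4 members in the last. A mean count of at least 50 gave 0 genes in both comparisons with Holstein Friesian, RLE size factors gave 0 in Brangus against Holstein Friesian, and no filter gave 1 for any breed difference. limma on log2(FPKM + 1) gave 2 genes in Kedah-Kelantan against Holstein Friesian and 1 in Kedah-Kelantan against Brangus, and on log2(FPKM + 0.1) gave 3 in Brangus against Holstein Friesian. Leaving out 1 library gave 0 to 2455, 0 to 4424, 0 to 2472 and, for any difference, 0 to 4795 genes, with 0 to 3, 0 to 12, 0 to 5 and 0 to 8 members. The causes were not tested.

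The replicate block gave 0 genes called in all 3 comparisons and turned DNAJB9 in Kedah-Kelantan against Brangus to -0.0065. Same-numbered libraries share only a number, with correlations of deviations of 0.054, 0.014 and -0.0017 between breeds.

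Class medians moved with scaling, given here for log2(FPKM + 0.1), log2(FPKM + 1) and total counts alone. In Kedah-Kelantan against Brangus they were -0.057, -0.055 and -0.064 for class A, 0.23, 0.17 and 0.17 for B, and 0.24, 0.22 and 0.23 for C. In Kedah-Kelantan against Holstein Friesian they were 0.057, 0.046 and 0.034 for A, 0.11, 0.091 and 0.098 for B, and 0.097, 0.094 and 0.096 for C. In Brangus against Holstein Friesian class B was 0.054 with log2(FPKM + 1) and 0.057 with total counts. Leaving out 1 library gave -0.35 to 0.019 for A, -0.097 to 0.084 for B and -0.15 to 0.11 for C in Kedah-Kelantan against Holstein Friesian. In Brangus against Holstein Friesian it gave -0.0097 to 0.36 for A, 0.030 to 0.34 for B and -0.089 to 0.31 for C, and in Kedah-Kelantan against Brangus -0.20 to -0.092 for B.

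Single members took the opposite sign in the same 3 settings. In Kedah-Kelantan against Holstein Friesian these were DNAJA1 (0.13, 0.13 and 0.12), DNAJA4 (0.14, 0.11 and 0.098), DNAJB11 (0.018, 0.017 and 0.0039) and DNAJB9 (0.030, 0.027 and 0.0079). In Kedah-Kelantan against Brangus these were DNAJA4 (0.075, 0.061 and 0.078), DNAJB1 (0.036, 0.035 and 0.035) and DNAJB4 (0.23, 0.19 and 0.17). Leaving out 1 library turned signs within -0.20 to 0.092 for DNAJA1, -0.36 to 0.29 for DNAJA4, -0.36 to 0.048 for DNAJB11 and -0.50 to 0.22 for DNAJB9 in Kedah-Kelantan against Holstein Friesian. It did so within -0.17 to 0.48 for DNAJA4, -0.060 to 0.34 for DNAJB11 and -0.50 to 0.22 for DNAJB9 in Brangus against Holstein Friesian, and within -0.48 to 0.42 for DNAJB4, -0.18 to 0.17 for DNAJB9 and -0.19 to 0.26 for DNAJC3 in Kedah-Kelantan against Brangus.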
